A study of Mus musculus with 14 samples.

Results

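Guanylate-binding proteins are large interferon-inducible GTPases, and 8 of their mouse genes, Gbp2 to Gbp9, were followed across all 14 RNA-seq libraries of bone marrow-derived macrophages. The members were taken by symbol, through their Ensembl identifiers with the version removed, and are 8 of the 47937 genes in the table of counts. The macrophages were wild type (WT) in every library. Of the libraries, 3 came from cells given for 3.5 h a supernatant that the labels tie to mast cell intracellular traps (trap supernatant), 5 from cells given mast cell supernatant for the same time, and 6 from untreated cells. By its title the series concerns mast cells that trap neutrophils and pass on inflammatory signals. The labels place every library in 1 of 3 batches without saying what a batch is. Each batch holds 1 library with trap supernatant and 2 untreated libraries, and mast cell supernatant has 2 libraries in batch 1, 1 in batch 2 and 2 in batch 3. The sources used here give no age, sex or number of mice. Nothing states whether libraries of a batch came from separate cultures, so the p-values measure the spread between these libraries, which may be technical.

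Guanylate-binding proteins belong to the dynamin superfamily. They bind and hydrolyse GTP, assemble on the membranes of pathogen vacuoles and on the lipopolysaccharide of bacteria that have reached the cytosol, and in macrophages promote the detection of lipopolysaccharide by caspase-11 and of DNA by the AIM2 inflammasome. Several, Gbp2 and Gbp5 among them, are anchored to membranes by a prenyl group. Their transcription is driven by interferon-gamma, in part through IRF1, and also by type I interferon. Promoter elements known for these responses are the interferon-stimulated response element (ISRE), which a complex with STAT2 and IRF9 binds, and the gamma-activated sequence (GAS).

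The genes lie in clusters on chromosomes 3 and 5, with coordinates from GENCODE release M21 on GRCm38. On the plus strand of chromosome 3 are Gbp5 (ENSMUSG00000105504, 142493978 to 142522344), Gbp7 (ENSMUSG00000040253, 142530342 to 142550149), Gbp3 (ENSMUSG00000028268, 142560026 to 142573209) and Gbp2 (ENSMUSG00000028270, 142620602 to 142638008). On the minus strand of chromosome 5 are Gbp8 (ENSMUSG00000034438, 105014150 to 105139540), Gbp9 (ENSMUSG00000029298, 105077630 to 105139539), Gbp4 (ENSMUSG00000079363, 105115767 to 105139586) and Gbp6 (ENSMUSG00000104713, 105270702 to 105293698). Gbp4, Gbp8 and Gbp9 share an exonic stretch of 60 or 61 bases at their common end. All are protein-coding. Near-identical stretches limit how well reads can be assigned. Of all 50-base words in the transcripts of Gbp6, 70.7% also occur in another gene, mainly in the overlapping model Gm43302 (65.0%). The share was 18.1% for Gbp8, 12.7% for Gbp7, 8.0% for Gbp9, 7.7% for Gbp4, 3.8% for Gbp3, 2.0% for Gbp2 and 1.4% for Gbp5. Values of Gbp6 and Gbp8 are therefore uncertain, while Gbp2, Gbp3 and Gbp5 are little affected.

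The RefSeq promoter table (GRCm38.p6) holds the 4 members of the chromosome 3 cluster, Gbp2, Gbp3, Gbp5 and Gbp7. Stretches of them are shown because all 4 hold letters that match the ISRE, and because most of the differences below concern these genes. Gbp4, Gbp6, Gbp8 and Gbp9 could not be compared, having no promoter there. Any link between the letters and the differences was not tested. The motifs searched, on both strands of the 250 bases upstream of each RefSeq start, were GAAA, any 2 bases and GAAA again for ISRE, and TTCNNNGAA for GAS. Of all 32851 promoters in the table, 978 (2.98%) hold the first and 2306 (7.02%) the second. Each of the 4 genes holds an ISRE match, which starts 59 bases upstream of the RefSeq start for Gbp2, 45 for Gbp3, 165 for Gbp5 and 53 for Gbp7. In each case the match is on the minus strand, so it reads as TTTC, any 2 bases and TTTC on the plus strand printed here, 5′ to 3′, with the matched letters in capitals.
Gbp2, chr3:142620594-142620623: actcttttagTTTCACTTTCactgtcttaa
Gbp3, chr3:142559992-142560021: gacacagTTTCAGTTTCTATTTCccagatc
Gbp5, chr3:142496759-142496788: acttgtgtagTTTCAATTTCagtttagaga
Gbp7, chr3:142530273-142530302: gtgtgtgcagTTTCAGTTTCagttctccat
Gbp3 holds 2 overlapping matches, while a second promoter listed for it holds none, and Gbp3 and Gbp7 have the same 10 letters, TTTCAGTTTC. GAS matches were found 2 times each in Gbp5 and Gbp7, at 245 and 52 bases upstream of the start in Gbp5 and at 106 and 87 bases in Gbp7. Those letters are not in the searched window of Gbp2 or Gbp3. In the GENCODE models the Gbp3 and Gbp7 matches lie upstream of the gene, that of Gbp2 lies in the first exon, in its untranslated part, and that of Gbp5 lies in an intron of a longer transcript. A match is a description of the letters and does not show that a factor binds.

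Total counts per library ran from 12414738 to 16491536 with trap supernatant, from 11729073 to 16123421 with mast cell supernatant and from 13455686 to 22720419 in untreated cells. All 8 macrophage markers of a fixed list were detected in every group, with a summed level of 8232 to 18300 counts per 1e+06 counts (CPM) with trap supernatant, 8200 to 19400 with mast cell supernatant and 8343 to 17980 in untreated cells. Over all treatments the sum was 17640 to 19400 CPM in batch 1, 11010 to 11840 in batch 2 and 8200 to 9152 in batch 3. These batch ranges did not overlap. Mast cell marker transcripts (12 genes) accompanied the supernatants. Their summed level was 88.3, 777 and 2081 CPM in the trap libraries of batches 1, 2 and 3, and with mast cell supernatant 85.7 and 113.8 CPM in batch 1, 1458 CPM in batch 2 and 299.3 and 237.3 CPM in batch 3. In untreated libraries it was 7.11 to 9.36 CPM, with the proteases Mcpt4, Tpsb2 and Tpsab1 at 0. Fibroblast and endothelial markers were higher in batch 2 than elsewhere in all 3 groups, at 141.3 CPM with trap supernatant, 157.3 CPM with mast cell supernatant and 139.2 and 131.1 CPM untreated, against 13.6 to 31.0 CPM in the other libraries. Markers of T and NK cells, the classical sources of interferon-gamma, summed to 0.454 to 2.18, 0.378 to 1.201 and 0.270 to 0.707 CPM in the groups treated with trap supernatant, with mast cell supernatant and untreated. Of these 10 markers 4, 6 and 6 had any count, and Cd3g, a subunit of the T cell receptor complex, was at 0 in every group. Neutrophil markers summed to 81.2 to 228.6, 71.4 to 229.5 and 88.6 to 278.2 CPM in the same order of groups. By batch, neutrophil sums were 117.4 to 161.2 CPM in batch 1, 71.4 to 104.3 in batch 2 and 202.2 to 278.2 in batch 3.

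Gbp2 was the leading member per unit of exon length, and the family spanned a wide range of levels. In untreated cells, as normalised CPM per kilobase of exon (mean ± SD, n = 6), Gbp2 was at 14.8 ± 7.07, Gbp3 at 4.005 ± 2.19 and Gbp9 at 3.396 ± 0.842. Gbp5 followed at 1.204 ± 0.571 and Gbp7 at 0.954 ± 0.442, whereas Gbp8, Gbp6 and Gbp4 were at 0.0961 ± 0.0278, 0.0699 ± 0.0405 and 0.0356 ± 0.0115. The untreated ranges of neighbours in this order overlapped, except between Gbp9 and Gbp5 and between Gbp7 and Gbp8. Within a library the order was firmer at the top, since Gbp2 exceeded Gbp3 in 14 of 14 libraries. Gbp3 exceeded Gbp9 in 9 of 14, and Gbp5 exceeded Gbp7 in 9 of 14. Gbp9 exceeded Gbp5 in 13 of 14 libraries, the exception being the trap library of batch 1, where Gbp5 stood at 4.32 and Gbp9 at 3.67 on this scale.

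**Figure D1:**
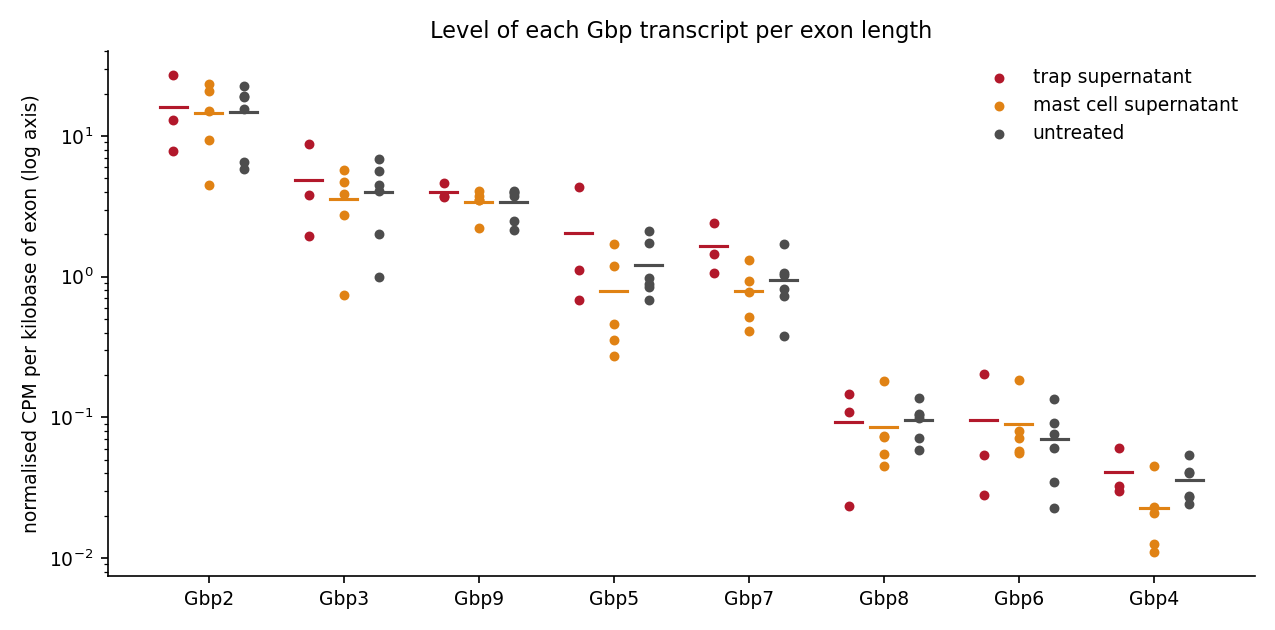
Level of each Gbp transcript as normalised CPM per kilobase of exon (log axis), 1 point per library and a bar for the group mean, with trap supernatant, mast cell supernatant and untreated from left to right. Gbp2 leads, with an untreated mean of 14.8, and Gbp8, Gbp6 and Gbp4 have untreated means under 0.1.

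All 8 members had at least 1 count in every library, and 6 passed the filter on low counts and were tested. Gbp4 (1 to 6 counts a library, 51 in all) and Gbp8 (1 to 11, 70 in all) did not pass, and Gbp6 passed with only 2 to 16 counts. With so few counts, changes of these 3 genes were hardly detectable. The relatives Gbp2b, Gbp10 and Gbp11 had 0 to 3 counts in any library and were not tested. In bulk RNA, fewer cells that express a gene and less RNA of it per cell cannot be told apart.

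Gbp5, a membrane-bound member linked in macrophages to inflammasome assembly, varied most with treatment and batch. Batch 1 had 28.7 CPM with trap supernatant, 7.95 and 11.2 CPM with mast cell supernatant and 5.61 and 6.52 CPM in untreated cells. Batch 2 had 7.38 CPM with trap supernatant, 2.34 CPM with mast cell supernatant and 5.87 and 4.53 CPM untreated. Batch 3 had 4.51 CPM with trap supernatant, 3.06 and 1.82 CPM with mast cell supernatant and 11.5 and 13.9 CPM untreated. The trap library thus lay above every mast cell supernatant library of its own batch, and above the untreated libraries in batches 1 and 2, but below them in batch 3. Mast cell supernatant lay above untreated in batch 1 and below it in batches 2 and 3. Across batches the groups overlapped.

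Gbp7, known in the mouse for recruiting NADPH oxidase subunits to phagosomes, was at 13.5, 5.98 and 8.14 CPM in the trap libraries of batches 1, 2 and 3. The mast cell supernatant libraries had 7.41 and 5.20 CPM in batch 1, 2.92 CPM in batch 2 and 2.29 and 4.39 CPM in batch 3. Untreated libraries had 5.81 and 4.08, 4.59 and 2.13, and 9.55 and 5.99 CPM in these batches. The trap library was the higher in each batch against mast cell supernatant, and in batch 3 it lay between the untreated libraries. Gbp2, which acts in the control of Toxoplasma and of cytosolic bacteria, was at 68.8, 19.6 and 33.0 CPM with trap supernatant. In cells given mast cell supernatant it was at 59.4 and 52.7, then 11.2, then 37.7 and 23.5 CPM, and in untreated cells at 38.9 and 48.1, then 16.5 and 14.55, then 48.6 and 57.0 CPM, in batches 1, 2 and 3. All batch 2 libraries were low for Gbp2, whatever the treatment.

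Gbp3, a member recruited to Toxoplasma vacuoles, resembled Gbp2. It was at 28.7, 6.38 and 12.4 CPM with trap supernatant in batches 1, 2 and 3. After mast cell supernatant it was at 18.8 and 15.5, then 2.40, then 12.7 and 8.95 CPM, and untreated at 14.7 and 13.2, then 6.55 and 3.23, then 18.5 and 22.3 CPM. Gbp9, of the chromosome 5 cluster and also found at such vacuoles, had the narrowest range relative to its level. It was at 19.0, 23.9 and 19.3 CPM with trap supernatant, at 18.0 and 11.5, then 18.1, then 19.5 and 21.05 CPM with mast cell supernatant, and untreated at 11.2 and 12.9, then 20.7 and 19.3, then 20.5 and 20.9 CPM. Unlike the chromosome 3 genes Gbp2 and Gbp3, it was not low in batch 2.

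The summed level of the 8 members, which does not depend on how reads are divided among them, was 160.8 CPM with trap supernatant, 113.0 and 96.9 CPM with mast cell supernatant and 77.1 and 85.7 CPM untreated in batch 1. In batch 2 the sums were 64.2, then 38.1, then 55.2 and 44.5 CPM, and in batch 3 they were 77.9, then 76.2 and 60.4, then 110.0 and 121.3 CPM, in the same order of groups. The log2 difference of the sum between trap and mast cell supernatant was 0.62, 0.75 and 0.20 in batches 1, 2 and 3. Against untreated cells it was 0.98, 0.37 and -0.57 with trap supernatant and 0.37, -0.38 and -0.77 with mast cell supernatant. No test was made on the sum.

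**Figure D2:**
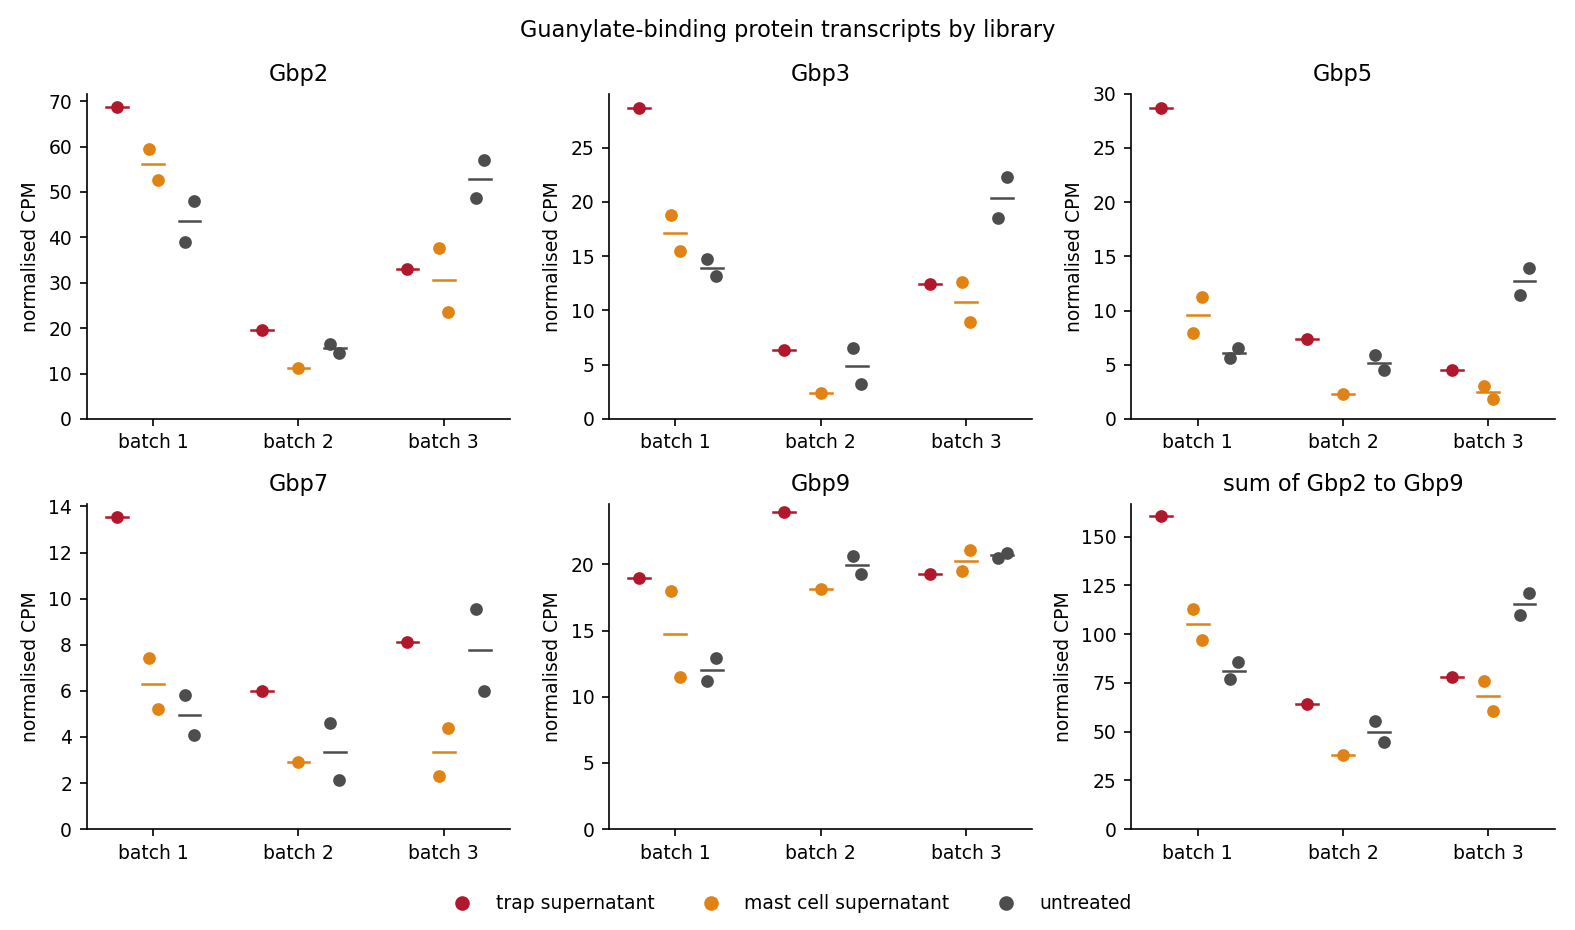
Normalised CPM of Gbp2, Gbp3, Gbp5, Gbp7, Gbp9 and the sum of all 8 members in each library, by batch, with trap supernatant, mast cell supernatant and untreated from left to right (points are libraries, bars are means). In batch 1 the trap library reaches 28.7 CPM of Gbp5, whereas in batch 3 both treatments lie below the untreated libraries at 11.5 and 13.9 CPM.

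The first comparison is trap against mast cell supernatant, 2 preparations whose mast cell marker sums differed in batches 2 and 3. It does not isolate what the traps add. With batch as a term and all 14 libraries, the log2 difference was 1.45 ± 0.62 (SE) for Gbp5, 1.14 ± 0.36 for Gbp7, 0.69 ± 0.34 for Gbp3, 0.37 ± 0.27 for Gbp2, 0.21 ± 0.14 for Gbp9 and 0.12 ± 0.52 for Gbp6. The median of the 6 was 0.53, beside 0.0009 over all genes tested, and all 6 were positive, Gbp6 reversing its sign in alternative fits. By edgeR's quasi-likelihood test with Benjamini-Hochberg adjustment over 13061 genes, 0 of the 6 passed at a false discovery rate of 0.05, where 0% of all genes (0 genes) passed. In that edgeR fit 569 genes had an unadjusted p under 0.05, and Gbp5 and Gbp7 were the 2 members among them. DESeq2 called 11 genes and limma-voom 0, with 0 members in either. Without the trap library of batch 1 the pooled value was 0.66 for Gbp5, 0.92 for Gbp7, 0.37 for Gbp3, 0.22 for Gbp2, 0.067 for Gbp9 and -0.80 for Gbp6, whereas without all of batch 1 Gbp5 was at 1.46 and Gbp7 at 1.23. In a fit of the treated libraries alone, Gbp5 (1.43, adjusted p = 0.00690) and Gbp7 (1.14, adjusted p = 0.0213) rose, 2 of the 5 members tested there, where 0.176% of 12506 genes passed (22 genes). Such fits of the compared groups alone gave 0 members for trap supernatant against untreated and for mast cell supernatant against untreated, where 1.5% and 3.88% of genes passed.

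Within batches, Gbp5 was higher with trap than with mast cell supernatant by a log2 difference of 1.59 ± 0.22 in batch 1 (3.01-fold, adjusted p = 0.00200) and 1.65 ± 0.34 in batch 2 (3.14-fold, adjusted p = 0.0201), and both differences passed. In batch 3 the difference was 0.89 ± 0.35 (adjusted p = 0.336). These tests use a model with a mean for each of the 9 combinations of group and batch, which leaves 5 residual degrees of freedom, and a lone library is taken to vary like those of other groups. The batch 2 contrast sets 1 library against 1, and limma-voom gave it an adjusted p of 0.0585. Of the 6 members 1 passed in batch 1, 1 in batch 2 and 0 in batch 3, where 0.199%, 1.06% and 1.45% of all genes passed. Of all genes 0.184% passed and were higher in batch 1 and 0.406% in batch 2. In batch 3 the 2 members with an unadjusted p under 0.05 were Gbp5 and Gbp7, and limma-voom also called 0 members. Gbp7 had 1.09 ± 0.42, 1.04 ± 0.56 and 1.28 ± 0.49 in batches 1, 2 and 3, similar in size throughout, with adjusted p of 0.711, 0.813 and 0.374. Gbp3 had 0.74 ± 0.26, 1.41 ± 0.44 and 0.20 ± 0.30 and Gbp2 had 0.29 ± 0.22, 0.81 ± 0.31 and 0.11 ± 0.25, none of which passed.

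In batch 1 all 6 members were higher in the trap library than in either mast cell supernatant library, as were 33.2% of all genes. In batch 2, where any gene is higher or lower in the single pair of libraries, 5 of 6 were higher (50.3% of all genes) and Gbp6 was lower (49.7%). In batch 3 Gbp5 and Gbp7 were higher (37.5% of all genes) and Gbp6 and Gbp9 lower (35%). The difference of Gbp5 in batch 1 stood beside nearly equal sums of mast cell markers, 88.3 CPM with trap supernatant and 85.7 and 113.8 CPM with mast cell supernatant. In batch 2 the marker sum was lower with trap supernatant (777 against 1458 CPM) and in batch 3 it was higher (2081 against 299.3 and 237.3 CPM), and its part in the Gbp values was not tested. No member's trap against mast cell difference passed a test for a change between batches (0 of 6, where 1.89% of all genes passed, with 0 at an unadjusted p under 0.05 and 0 by limma-voom). For Gbp5 that test gave an adjusted p of 0.779 and for Gbp7 0.991, which does not show that the batches are alike.

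The second comparison sets trap supernatant against untreated cells. Pooled over batches, 0 of 6 members passed, where 1.72% of all genes passed (224 genes). Gbp7 had 0.78 ± 0.33 (unadjusted p = 0.0392, the only member under 0.05, adjusted p = 0.352), Gbp5 0.53 ± 0.59, Gbp6 0.39 ± 0.50, Gbp9 0.28 ± 0.14, Gbp3 0.26 ± 0.33 and Gbp2 0.11 ± 0.26. By DESeq2 and limma-voom 0 members passed, and likewise in a fit of the 9 libraries numbered 1 to 3 with the replicate block, in which 36 genes passed. Without the trap library of batch 1 the pooled value of Gbp5 became -0.12, that of Gbp3 -0.02, that of Gbp2 -0.02 and that of Gbp6 -0.50. Gbp2, Gbp3, Gbp5, Gbp6 and Gbp9 differed in sign between batches 1 and 3, whereas Gbp7 was positive in every batch.

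In batch 1, Gbp5 rose with trap supernatant by 2.24 ± 0.22 on the log2 scale (4.72-fold, adjusted p = 2.01e-06) and Gbp3 rose by 1.04 ± 0.25 (2.06-fold, adjusted p = 0.0290), which is 2 of 6 members, where 6.07% of all genes passed and 4.32% passed and were higher. The call of Gbp3 was lost without untreated replicate 1 (adjusted p = 0.111) or 4 (0.179), and both calls rest on the single trap library of that batch. Gbp7 had 1.46 ± 0.41 (adjusted p = 0.0730), Gbp9 0.66 ± 0.19 (0.0514), Gbp2 0.66 ± 0.22 (0.133) and Gbp6 1.56 ± 0.59 (0.156) there. All 6 trap values lay above both untreated libraries in batch 1, as did 39% of all genes. In batch 2, 0 of 6 members passed (1.82% of all genes), with Gbp7 at 0.83 ± 0.48 (adjusted p = 0.743) and Gbp5 at 0.50 ± 0.26 (0.639). The lowest unadjusted edgeR p among the members there was 0.0714, so 0 were under 0.05, and limma-voom called 0. The trap value lay above both untreated libraries for 4 members (34% of all genes) and below both for 0.

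In batch 3 the direction of Gbp5 was the opposite. Gbp5 fell by 1.49 ± 0.28 on the log2 scale (2.81-fold lower, adjusted p = 0.00401), the 1 of 6 members to pass, where 3.66% of all genes passed and 1.79% passed and were lower. Gbp3 had -0.72 ± 0.29 (adjusted p = 0.249) and Gbp2 -0.68 ± 0.24 (0.198), whereas Gbp7 had 0.07 ± 0.44 and Gbp9 -0.10 ± 0.19. Trap values of 5 of 6 members, all but Gbp7, lay below both untreated libraries in batch 3, as did 34.7% of all genes. The change of the Gbp5 response between batches passed its own test (adjusted p = 1.07e-05), 1 of 6 members where 3.75% of all genes passed. Without the trap library of batch 1 that adjusted p was 0.0991. Gbp3 had an adjusted p of 0.0573 and Gbp2 of 0.109 in this test.

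The last comparison sets mast cell supernatant against untreated cells. Pooled, 0 of 6 members passed, where 4.79% of all genes passed (625 genes). There were 0 members with an unadjusted edgeR p under 0.05 and 0 passing by DESeq2, by limma-voom or with the replicate block, in which 84 genes passed. The values were -0.92 ± 0.57 for Gbp5, -0.43 ± 0.29 for Gbp3, -0.36 ± 0.32 for Gbp7, -0.26 ± 0.23 for Gbp2, 0.27 ± 0.44 for Gbp6 and 0.06 ± 0.12 for Gbp9. In batch 1, 0 of 6 passed (8.97% of all genes), with Gbp5 at 0.65 ± 0.21 (adjusted p = 0.0654 and unadjusted p = 0.00658, the only member under 0.05). In batch 2, 0 of 6 passed (4.03% of all genes), with Gbp5 at -1.15 ± 0.32 (adjusted p = 0.0575) and Gbp3 at -1.03 ± 0.41 (0.289), the 2 members with an unadjusted p under 0.05. By limma-voom 0 members passed in batch 1 or batch 2. In batch 1 both treated libraries lay above both untreated ones for 4 members (28.8% of all genes), and in batch 2 the treated library lay below both untreated ones for 4 (39.1%) and above them for Gbp6 (34.7%).

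In batch 3, 3 of 6 members fell with mast cell supernatant, where 12.1% of all genes passed in either direction and 8.18% were lower. Gbp5 fell by 2.38 ± 0.25 on the log2 scale (5.20-fold lower, adjusted p = 3.72e-06), Gbp3 fell by 0.92 ± 0.23 (1.89-fold lower, adjusted p = 0.0215) and Gbp2 fell by 0.79 ± 0.19 (1.73-fold lower, adjusted p = 0.0235). The Gbp5 call held in every alternative run. That of Gbp3 was lost without mast cell supernatant replicate 5 (adjusted p = 0.161) or untreated replicate 6 (0.0855), and that of Gbp2 without mast cell supernatant replicate 5 (0.0665) or untreated replicate 3 (0.0524) or 6 (0.193). Gbp7 had -1.21 ± 0.41 (adjusted p = 0.0908) and Gbp9 -0.03 ± 0.15. All members but Gbp9 were lower in both treated libraries than in both untreated ones, as were 25.5% of all genes. The response changed between batches for Gbp5 (adjusted p = 1.51e-05) and Gbp2 (0.0483), 2 of 6 members where 9.29% of all genes passed. The call of Gbp2 was lost in 8 of 17 alternatives, each the removal of 1 library: trap supernatant replicate 2, mast cell supernatant replicate 1 or 4, or untreated replicate 1, 2, 3, 5 or 6, with adjusted p of 0.0505 to 0.166. Both comparisons with untreated cells share the untreated libraries, and each shares treated libraries with the comparison of the supernatants, so their values are not independent. In batch 3 the untreated libraries themselves held more Gbp5, 11.5 and 13.9 CPM, than those of batch 1 at 5.61 and 6.52 CPM and of batch 2 at 5.87 and 4.53 CPM.

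**Figure D3:**
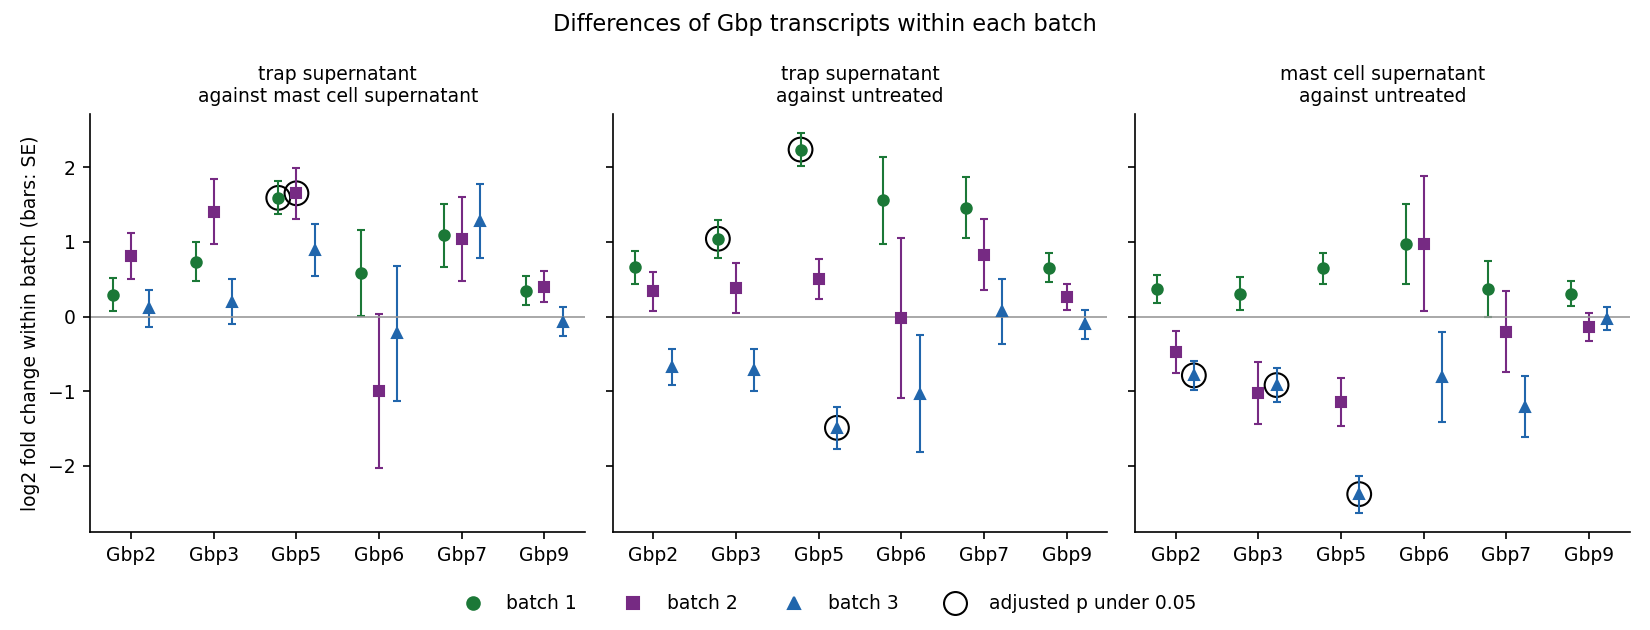
Log2 fold change within each batch (± SE) of the 6 tested Gbp transcripts, for trap against mast cell supernatant, trap against untreated and mast cell supernatant against untreated (rings mark an adjusted p under 0.05). Gbp5 ranges from 2.24 in batch 1 for trap against untreated to -2.38 in batch 3 for mast cell supernatant against untreated, and Gbp9 stays between -0.14 and 0.66.

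Transcripts of 2 interferon genes were counted in these libraries, and neither protein nor other interferon genes were examined. Ifng, the interferon-gamma gene, had 0 counts in all trap and mast cell supernatant libraries, which allows up to 0.0694 and 0.0457 CPM over those groups from 3 counts, and 1 count over the untreated libraries. Ifnb1, the interferon-beta gene, had 17, 6 and 0 counts in the trap libraries of batches 1, 2 and 3. Mast cell supernatant libraries had 7 and 10 counts in batch 1, 5 in batch 2 and 0 and 1 in batch 3. Untreated libraries had 0 and 0, 2 and 0, and 2 and 0 counts. The count was largest in the trap library of batch 1, where Gbp5 was also highest. The next highest Gbp5 levels, 13.9 and 11.5 CPM, were in the untreated libraries of batch 3, with 0 and 2 Ifnb1 counts. Any link between Ifnb1 and Gbp5 was not tested. Ifnb1 did not pass the filter on low counts and was not tested. These limits cover counting error only.

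In a list of 22 signalling genes, 20 were tested, and for trap against mast cell supernatant 0 passed in the pooled fit and 1, 3 and 2 were higher in batches 1, 2 and 3, with 0 lower, where 0.199%, 1.06% and 1.45% of all genes passed in either direction. Stat2, a subunit of the factor that binds ISRE, was higher with trap than with mast cell supernatant by 0.89 ± 0.15 in batch 1 (adjusted p = 0.0351) and by 1.21 ± 0.18 in batch 2 (0.00396). In batch 3 Stat2 had 0.23 ± 0.16 (adjusted p = 0.663). Irf9, which encodes the DNA-binding partner of STAT2, was higher by 0.59 ± 0.12 in batch 2 (adjusted p = 0.0121). Irf8 was also higher in batch 2, by 0.65 ± 0.11 (adjusted p = 0.00486), and Socs3 in batch 3, by 0.93 ± 0.15 (0.00135). Ifngr1, the interferon-gamma receptor gene, had -0.10 ± 0.10, -0.08 ± 0.11 and 0.01 ± 0.10 in batches 1, 2 and 3 and passed in no batch. It was higher with mast cell supernatant than untreated in batch 1 (0.35 ± 0.08, adjusted p = 0.00961).

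Against untreated cells, 7 of the 20 signalling genes were higher and 1 was lower with trap supernatant in batch 1, and 1 was higher and 3 were lower in batch 3, where 6.07% and 3.66% of all genes passed in either direction. With mast cell supernatant 5, 1 and 1 were higher and 2, 6 and 8 were lower in batches 1, 2 and 3 (8.97%, 4.03% and 12.1% of all genes in either direction). Irf1, which encodes a factor needed for full Gbp expression, rose with trap supernatant by 1.15 ± 0.12 in batch 1 (adjusted p = 1.02e-05) and fell by 0.91 ± 0.13 in batch 3 (0.000507), with -0.34 ± 0.13 in batch 2 (0.359), where Gbp5 had 0.50. Mast cell supernatant gave the same signs: Irf1 rose by 0.77 ± 0.10 in batch 1 (adjusted p = 9.82e-05) and fell by 1.46 ± 0.11 in batch 3 (2.08e-07), with -0.27 ± 0.13 in batch 2 (0.409). Between the supernatants Irf1 had 0.39 ± 0.12, -0.07 ± 0.15 and 0.56 ± 0.13 in batches 1, 2 and 3, of which batch 3 passed (adjusted p = 0.0441). Its change between batches passed in both comparisons (adjusted p = 4.88e-06 for trap and 1.55e-07 for mast cell supernatant). Socs1, a feedback inhibitor of interferon receptors, rose by 1.84 ± 0.25 with trap and by 1.24 ± 0.22 with mast cell supernatant in batch 1. With trap supernatant it had 0.36 ± 0.26 in batch 2 and -0.29 ± 0.28 in batch 3. With mast cell supernatant it had -0.56 ± 0.29 in batch 2 and -0.96 ± 0.24 in batch 3 (adjusted p = 0.0125). The change of Socs1 between batches passed in both comparisons (adjusted p = 0.00336 for trap and 0.000283 for mast cell supernatant). Irf2, which encodes a factor that competes with IRF1, was the 1 signalling gene higher in the pooled fit of each treatment, by 0.42 ± 0.09 with trap supernatant (adjusted p = 0.0195) and 0.37 ± 0.08 with mast cell supernatant (0.00906). In the pooled fit 0 signalling genes were lower with trap supernatant and 2, Ifnar1 and Ifngr2, were lower with mast cell supernatant.

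Partner GTPases of the immunity-related family, which load onto the same vacuoles, were among the genes higher with trap than with mast cell supernatant. Gm12250, which encodes Irgb10, a GTPase that acts with guanylate-binding proteins on bacterial membranes, was higher with trap than with mast cell supernatant by 1.48 ± 0.19 in batch 1 (adjusted p = 0.00126), 1.63 ± 0.26 in batch 2 (0.00215) and 0.70 ± 0.24 in batch 3 (0.235). Irgm2, a regulatory GTPase that affects where guanylate-binding proteins are deployed, was higher by 1.26 ± 0.14, 1.44 ± 0.17 and 0.68 ± 0.15 in batches 1, 2 and 3 (adjusted p = 0.000204, 0.000251 and 0.0227). Of the 17 tested genes in the list of partner GTPases and ATG8 conjugation factors, 5, 5 and 1 were higher and 0 lower in batches 1, 2 and 3, where 0.199%, 1.06% and 1.45% of all genes passed in either direction. The list's median was 0.04, 0.11 and 0.04. In batch 3, 7 of 17 with mast cell supernatant were lower than untreated and 1 was higher (12.1% of all genes in either direction), and Gm12250 fell by 1.49 ± 0.18 (adjusted p = 1.85e-05). With trap supernatant Gm12250 rose by 1.52 ± 0.18 in batch 1 (adjusted p = 2.18e-05) and fell by 0.80 ± 0.21 in batch 3 (0.0460).

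Downstream of the Gbp proteins, Casp4, the mouse caspase-11 gene, rose in batch 1 by 0.68 ± 0.11 with trap supernatant (adjusted p = 0.000536) and by 0.54 ± 0.09 with mast cell supernatant (0.000679). In batch 3 it fell by 0.57 ± 0.12 with trap supernatant (adjusted p = 0.00680) and by 0.68 ± 0.09 with mast cell supernatant (5.06e-05). Between the supernatants Casp4 differed by 0.14 ± 0.11, 0.04 ± 0.13 and 0.12 ± 0.12 in batches 1, 2 and 3 and passed in no batch. Gsdmd, the gene of the pore-forming protein that caspase-11 cleaves, passed in no batch of any comparison, its values running from -0.31 to 0.25. In the caspase-11 and inflammasome list of 12 genes, which shares Irf1 with the signalling list, 4 were higher and 0 lower with trap supernatant in batch 1 (6.07% of all genes in either direction). The counts with mast cell supernatant in batch 1 were the same, 4 higher and 0 lower (8.97%). In batch 3, 0 were higher and 2 lower with trap supernatant (3.66%), and 1 was higher and 5 were lower with mast cell supernatant (12.1%). Of the 6 genes in the prenylation list, 0 passed in 11 of 12 fits, and Pggt1b was lower with mast cell supernatant in batch 3 (-0.55 ± 0.16, adjusted p = 0.0309).

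The medians of other interferon response genes had the sign of the Gbp medians in each batch of each comparison. In a list of 20, all tested, the median log2 difference between trap and mast cell supernatant was 1.39, 1.47 and 0.32 in batches 1, 2 and 3, where the 6 Gbp members had 0.66, 0.92 and 0.16. Against untreated cells the list had 1.59, 0.66 and -0.63 with trap supernatant, where the Gbp members had 1.25, 0.36 and -0.70. With mast cell supernatant the list had 0.42, -0.72 and -1.13 and the Gbp members 0.37, -0.34 and -0.86. Over all genes tested these medians lay between -0.016 and 0.003. Passing the test, 11 of 20 were higher with trap supernatant than untreated in batch 1, where 4.32% of all genes were, and 8 were lower with mast cell supernatant in batch 3, where 8.18% of all genes were. Rsad2, the gene of the antiviral protein viperin, was higher with trap than with mast cell supernatant by 1.93 ± 0.18, 1.88 ± 0.24 and 1.62 ± 0.20 in batches 1, 2 and 3 (adjusted p = 0.00200, 0.00427 and 0.00347). Mx2, an antiviral dynamin-like GTPase, was higher by 1.88 ± 0.18, 2.20 ± 0.28 and 1.42 ± 0.25 (adjusted p = 8.89e-05, 0.000398 and 0.00512). In batch 3 these 2 genes passed for trap against mast cell supernatant, where no Gbp member did, and the difference between them and the Gbp members was not tested.

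In a list of 12 targets of NF-kB, a transcription factor of inflammatory genes, 11 were tested, and their median for trap against mast cell supernatant was -0.15, -0.52 and 0.72 in batches 1, 2 and 3. Of them 0 were higher and 0 lower in batch 1, 4 were lower in batch 2 and 6 were higher in batch 3, where 0.199%, 1.06% and 1.45% of all genes passed in either direction. The difference between this list and the Gbp members was not tested. Cxcl1, a neutrophil chemokine gene, was lower with trap than with mast cell supernatant by -1.56 ± 0.22 in batch 2 (adjusted p = 0.00364) and higher by 1.45 ± 0.19 in batch 3 (0.00196), whereas Gbp5 was higher in batch 2. Against untreated cells the NF-kB list had medians of 1.34, -0.10 and -0.16 with trap supernatant and 1.48, 0.33 and -0.78 with mast cell supernatant.

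**Figure D4:**
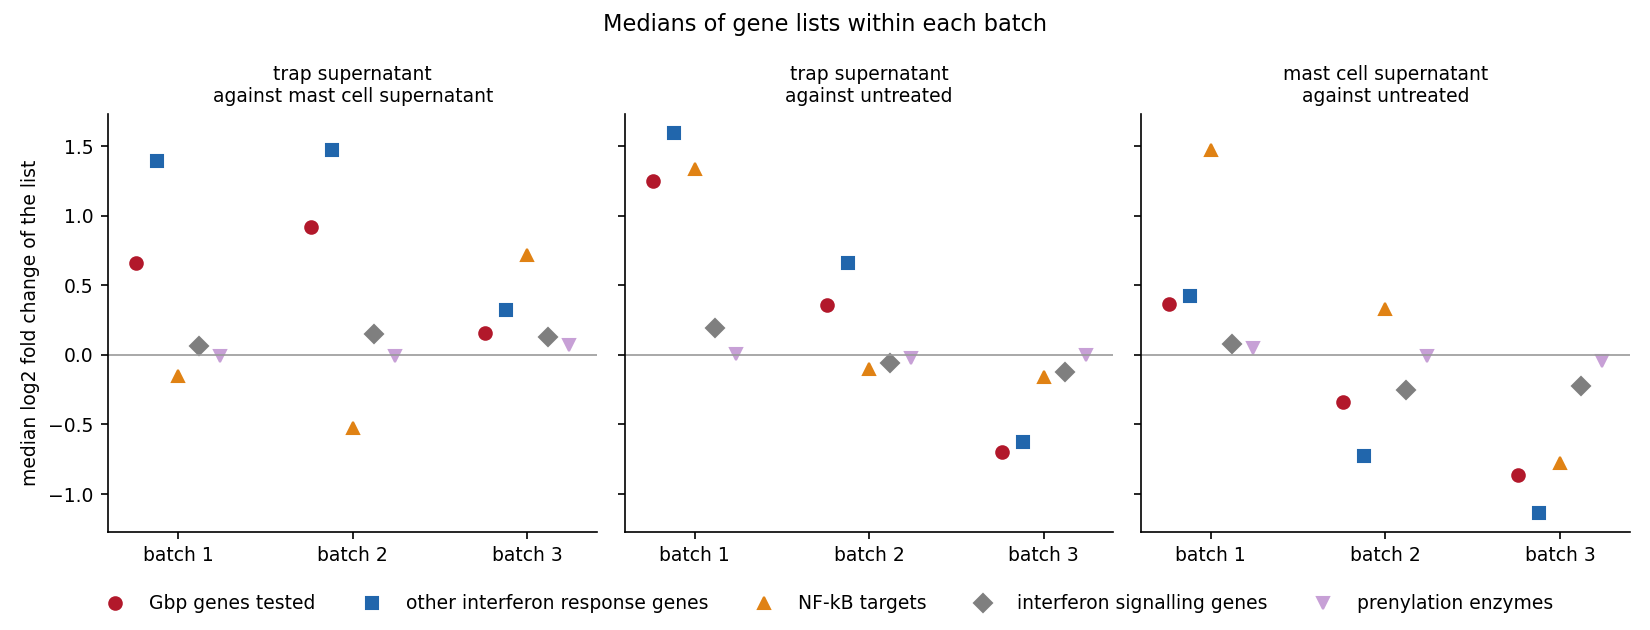
Median log2 fold change within each batch of the 6 tested Gbp genes and of 4 gene lists (other interferon response genes, NF-kB targets, interferon signalling genes and prenylation enzymes), for trap against mast cell supernatant, trap against untreated and mast cell supernatant against untreated. With trap supernatant against untreated, the Gbp median and that of the other interferon response genes are above 0 in batch 1 (1.25 and 1.59). Both are below 0 in batch 3 (-0.70 and -0.63). NF-kB targets have the same signs in that comparison (1.34 and -0.16). For trap against mast cell supernatant, NF-kB targets lie below 0 in batches 1 and 2 (-0.15 and -0.52), where the Gbp median lies above it (0.66 and 0.92). In batch 3 both lie above 0 (0.72 and 0.16).

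The genes most like the Gbp members were named by Pearson's r over the 14 libraries between log2 CPM with batch means removed and the mean of the 6 tested members treated the same way, among the 9765 genes whose mean reached 5 CPM. They were Helz2 (r = 0.984), an interferon-induced helicase gene, Ddx58 (0.968) and Ifih1 (0.965), which encode the RNA sensors RIG-I and MDA5, Tgtp2 (0.967), an immunity-related GTPase gene, and Usp18 (0.964), an inhibitor of type I interferon signalling. The libraries share batches and group, so r is given as a description. Helz2 was higher with trap than with mast cell supernatant by 0.82 ± 0.11 in batch 1 (adjusted p = 0.00126) and 0.76 ± 0.13 in batch 2 (0.00364), and by 0.41 ± 0.11 in batch 3 (0.0973). Helz2 rose with trap supernatant against untreated cells in batch 1 (1.08 ± 0.10, adjusted p = 1.70e-06) and fell in batch 3 (-0.47 ± 0.11, adjusted p = 0.0226). Because Helz2 was picked by its likeness to the members in these same libraries, its resemblance to them is no separate evidence.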

How the data were processed

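The deposited values are raw read counts per gene, which the authors made with featureCounts 2.0.0 on GRCm38, per the submitters' processing notes; the sources used here give no aligner, annotation release or strand setting, so a gene and its antisense partner may not be told apart. Per the labels, RNA came from a Qiagen RNeasy kit (Plus Micro) and poly(A) libraries from Illumina's stranded preparation. Symbols for 47310 of 47937 identifiers came from GENCODE M21, and 627 had none.

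The analysis used edgeR 4.0.16 in R 4.3.3 (filterByExpr by group, 13061 genes kept; TMM; quasi-likelihood F test; group and batch; Benjamini-Hochberg; false discovery rate 0.05). A second model with 9 group-by-batch means gave the within-batch contrasts and the tests of a change between batches. SE is that implied by F. DESeq2 1.42.0 and limma-voom (limma 3.58.1) were alternatives, as were RLE scaling, no filter, no batch term, the compared groups alone, each batch or library left out, and the replicate block. All were planned. The models were tested on simulated libraries drawn independently of each other. Technical replicates were not simulated, so those runs do not show that the within-batch p-values hold. CPM, the count per 1e+06 counts after TMM scaling, was divided by exon length to compare genes. Without molecular identifiers, repeated copies of a molecule may be counted more than once.

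Numbers 1 to 3 mark batches 1 to 3 in every group, per the labels, so the replicate block is the batch term on those 9 libraries. After removal of group means the 9 same-number pairs correlated at 0.298 to 0.71 and the 18 other pairs at -0.592 to 0.173. Chi-square per degree of freedom was 1.83 to 14.9 for same-batch pairs within groups and 31.5 to 78.5 for others, so none was merged, but libraries of a batch may be technical replicates. The lone libraries and small residual spread may make within-batch p-values too small.

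The members and lists were chosen with earlier results of these data known. All 8 members are named, genes of a fixed panel around them (Irf1, Ifngr1, Ifnb1, Ifng, Casp4, Gsdmd, Gm12250, Gbp2b, Gbp10 and Gbp11), the 5 genes of highest likeness, and from each list genes among the 3 largest changes per direction and comparison that passed, with a mean of at least 1 CPM. One gene of the panel is not reported here.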

Additional observations from a re-analysis of the deposited data

Results flagged for a closer look

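The difference of Gbp5 between trap supernatant and untreated cells changed between batches (adjusted p = 1.07e-05), with log2 values of 2.24, 0.50 and -1.49 in batches 1, 2 and 3. Without trap supernatant replicate 1 that adjusted p was 0.0991. Between mast cell supernatant and untreated cells it changed as well (adjusted p = 1.51e-05), with 0.65, -1.15 and -2.38. For Gbp2 the difference between mast cell supernatant and untreated cells changed between batches with an adjusted p of 0.0483 and log2 values of 0.37, -0.47 and -0.79, a call lost in 8 of 17 alternatives (adjusted p of 0.0505 to 0.166). Among 18 groups of values examined for a library far from the rest of its group, 2 were found. Only mast cell supernatant and untreated libraries were examined in this way, so the trap libraries had no such check. Each group mixes 3 batches, so the rate of about 1 in 20 given by chance may not apply. Gbp6 stood at 1.09 CPM (14 counts) in mast cell supernatant replicate 1, against 0.331 to 0.472 CPM in the other libraries of that group. In batch 1, to which that library belongs, Gbp6 stood at 1.21 CPM with trap supernatant and at 0.455 and 0.362 CPM untreated. Gbp8 stood at 0.629 CPM (11 counts) in mast cell supernatant replicate 2, against 0.156 to 0.255 CPM in the others. That is the 1 batch 2 library of its group. Gbp8 stood in batch 2 at 0.503 CPM with trap supernatant and at 0.473 and 0.343 CPM untreated. Both far values rest on few counts of genes that share sequence with relatives.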

How the results depend on the processing

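In the pooled fits the count of Gbp members called was 0 in all 3 comparisons and in every alternative except 1, the fit of the 2 compared groups alone for trap against mast cell supernatant, with 2. The cause was not tested for this or any value below. The number of all genes called for trap against mast cell supernatant, 0, became 11 with DESeq2, 22 with those groups alone and 1 without batch 3, and 0 to 3 without single libraries. For trap against untreated, 224 became 409 with DESeq2, 15 without the batch term, 36 with the replicate block, 116 without batch 1 and 88 without batch 2, and 97 to 280 without single libraries. For mast cell supernatant against untreated, 625 became 62 without the batch term, 84 with the replicate block and 231 without batch 2, and 449 to 751 without single libraries. The block changed no call of a member. Of the combinations of member and batch called, 2 for trap against mast cell supernatant became 1 with limma-voom, 7 with no low count filter and 1 to 2 without single libraries, and 3 for trap against untreated became 5, 8 and 1 to 5. For mast cell supernatant against untreated 3 became 8 with no filter and 1 to 5 without single libraries. Members whose difference changed between batches, 1 for trap against untreated, became 3 with limma-voom, 4 with no filter and 0 to 2 without single libraries, and 2 for mast cell supernatant against untreated became 4 with no filter and 1 to 3.

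Pooled log2 values that changed sign were all of members that passed in neither fit. For trap against mast cell supernatant Gbp6 became -0.23 with the replicate block and ran from -0.80 to 0.51 without single libraries, below 0 without trap supernatant replicate 1 or mast cell supernatant replicate 4 (-0.029) or 5 (-0.015). For trap against untreated without batch 1, Gbp2, Gbp3 and Gbp5 became -0.16, -0.18 and -0.42, and without batch 2 Gbp2 became -0.00019. Without single libraries Gbp2 ran from -0.031 to 0.36, Gbp3 from -0.019 to 0.62, Gbp5 from -0.12 to 1.10 and Gbp6 from -0.50 to 0.80, with the lowest value of Gbp3, Gbp5 and Gbp6 without trap supernatant replicate 1 and the highest of all 4 without replicate 3. For mast cell supernatant against untreated, Gbp9 became -0.047 without batch 1 and ran from -0.046 to 0.12 without single libraries, and without batch 3 Gbp2, Gbp5 and Gbp7 became 0.11, 0.039 and 0.17. Of the other comparisons of single members with an alternative, 407 kept direction and call. Low counts limit Gbp4, Gbp6 and Gbp8, with at most 6, 16 and 11 counts a library, and these genes also share sequence with other genes.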
